A study of Arabidopsis thaliana with 6 samples.

Results

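The genes described here are 38 nuclear genes of Arabidopsis thaliana that encode subunits of photosystem II, photosystem I, the photosynthetic electron transport chain and the chloroplast ATP synthase, together with a few auxiliary proteins of the same thylakoid membranes. They were listed by gene identifier, with earlier results of these data known, out of 36917 genes in the deposited count tables. They comprise 10 photosystem II genes, 12 photosystem I genes, 8 electron transport genes (cytochrome b6f subunits, plastocyanin, ferredoxin and ferredoxin-NADP reductase), 3 ATP synthase genes and 5 auxiliary genes (PSB27, CURT1B, PGR5, PGRL1A and PGRL1B). The study compared RNA-seq libraries of fbn6-1 plants (replicates 1, 2 and 3) with libraries of Col-0 wild-type plants (replicates 2, 3 and 4). The fbn6-1 mutant carries the GK_159E10 insertion in the FIBRILLIN6 gene (FBN6), which encodes a plastid lipid-associated protein, in the same Col-0 background, so a single mutant allele stands for the loss of the gene. All plants were 3 weeks old and grew on soil in a greenhouse, with 16 h of light (a fluence near 120 µmol m-2 s-1) and 8 h of dark a day. The labels name no stress treatment. Since they do not say what a replicate was (a plant, a pool or a repeat preparation), p-values cover only the spread among these libraries, some of which may be technical.

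Photosystem II extracts electrons from water and passes them through plastoquinone to the cytochrome b6f complex, and plastocyanin carries them on to photosystem I. Photosystem I reduces ferredoxin, from which ferredoxin-NADP reductase makes NADPH, and the proton gradient built along the way drives the ATP synthase. The reaction centre cores of these complexes are encoded in the plastid genome, whereas the genes described here supply the extrinsic and small subunits and the mobile carriers from the nucleus. In green leaves many of these nuclear genes are among the most highly expressed.

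The mutated gene FBN6 (AT5G19940) was represented by 7, 3 and 3 counts in fbn6-1, against 1845, 1557 and 2201 in Col-0, so each library matched its genotype label. Library totals lay between 8668956 and 12287197 counts, of which plastid genes took between 59.4% and 62.2%. Col-0 replicate 3 stood apart from the other wild-type libraries: its counts differed from those of Col-0 replicates 2 and 4 with a chi-square per degree of freedom of 13.5 and 12.8, against 4.52 to 5.58 for every other pair of libraries of 1 genotype. The 5 leaf mesophyll markers RBCS1A, CA1, RCA, GLDP1 and SBPASE were all abundant, with summed levels of 14342 to 15718 CPM (counts per 1000000, scaled by TMM factors) in fbn6-1 and 17458 to 18338 CPM in Col-0. Of 8 root and 6 flower markers none passed the filter on low counts, their highest levels were 1.06 and 0.734 CPM, and 3 root markers and 1 flower marker had 0 counts in every library. Of 4 markers each, guard cell genes had 0 called, epidermis genes had PDF1 higher (log2 fold change 1.73, adjusted p = 0.0207) and vascular genes had APL lower (-0.81, adjusted p = 0.0194). The epidermis markers summed to 286 to 313 CPM in fbn6-1 and 320 to 343 CPM in Col-0, and the vascular markers to 95.8 to 103 CPM in fbn6-1 and 105 to 125 CPM in Col-0. Their part in the results was not tested.

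In fbn6-1 plants the transcripts of nearly all of these genes lay slightly below wild type. The median log2 fold change of a group ran from -0.31 for electron transport to -0.18 for the auxiliary genes. Differences between groups were not tested. Of the 38 genes, all of which passed the filter on low counts, 5 fell: PSBQ1 of photosystem II, PSAD2 of photosystem I, the ferredoxin-NADP reductase gene FNR1, the ATP synthase gene ATPD and the thylakoid curvature gene CURT1B. By edgeR, DESeq2 or limma-voom 0 rose, and 0 were higher at an unadjusted p under 0.05. A gene was called changed at an adjusted p under 0.05 in edgeR's quasi-likelihood test, with Benjamini-Hochberg adjustment over all 16584 tested genes, and by that rule 2.34% of all tested genes were lower and 1.48% were higher in fbn6-1. The median log2 fold change of the 38 genes, fbn6-1 over Col-0, was -0.25, against a median of -0.004 over all tested genes, and values ranged from -0.46 for CURT1B to 0.18 for FD1. At an unadjusted p under 0.05 stood 26 of the 38 genes, all of them lower in fbn6-1, against 17.8% of all tested genes in either direction and 9.8% lower.

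The fold change of 37 of the 38 genes lay below 0, against 50.5% of all tested genes, and with plain library-size scaling 34 did, since PSAE2 (0.12), FNR2 (0.03) and PSB27 (0.03) then lay above it. That scaling drops the normalization factors (1.02 to 1.09 in fbn6-1 and 0.922 to 0.998 in Col-0). It moved the median of all tested genes to 0.13 and that of the 38 genes to -0.11. The 38 lay 0.24 below all genes by either scaling. This was bound to hold, since rescaling libraries moves every gene by nearly the same amount. In CPM, all 3 fbn6-1 libraries were below all 3 Col-0 libraries for 32 of the 38 genes, against 12.1% of all tested genes, and above all of them for 0, against 10.9%. The 6 genes whose groups overlapped were PSAD1, PSAE2, PSAK, FD1, FNR2 and PSB27. Counted as a share of nuclear counts in each library, which uses no normalization factor, the groups did not overlap for 23 genes that were lower in fbn6-1 and for 1, PSAE2, that was higher, against 6.38% and 19.5% of tested nuclear genes.

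Other abundant nuclear genes also leaned downward. Among the 413 other nuclear genes that averaged 100 CPM or more, a level that 35 of the 38 genes also reached and that was chosen after the values were seen, 43 were lower (10.4%) and 10 were higher in fbn6-1, and their median log2 fold change was -0.15. At an unadjusted p under 0.05 stood 164 of them (39.7%). For 42.9% of them all fbn6-1 libraries lay below all Col-0 libraries in CPM. Only the 38 genes were left out of this group. It still holds other photosynthesis genes, such as RCA and CURT1A, and annotated neighbours that overlap the 38, such as AT4G28755. The 5 mesophyll markers, which are themselves among the 413 genes, had a median log2 fold change of -0.28, with 0 called. For 4 of them all fbn6-1 libraries lay below all Col-0 libraries, against 12.1% of all tested genes. These are bulk samples, in which fewer cells of a type and less RNA per cell cannot be told apart, and the part of a change in mesophyll content in these results was not tested.

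**Figure D1:**
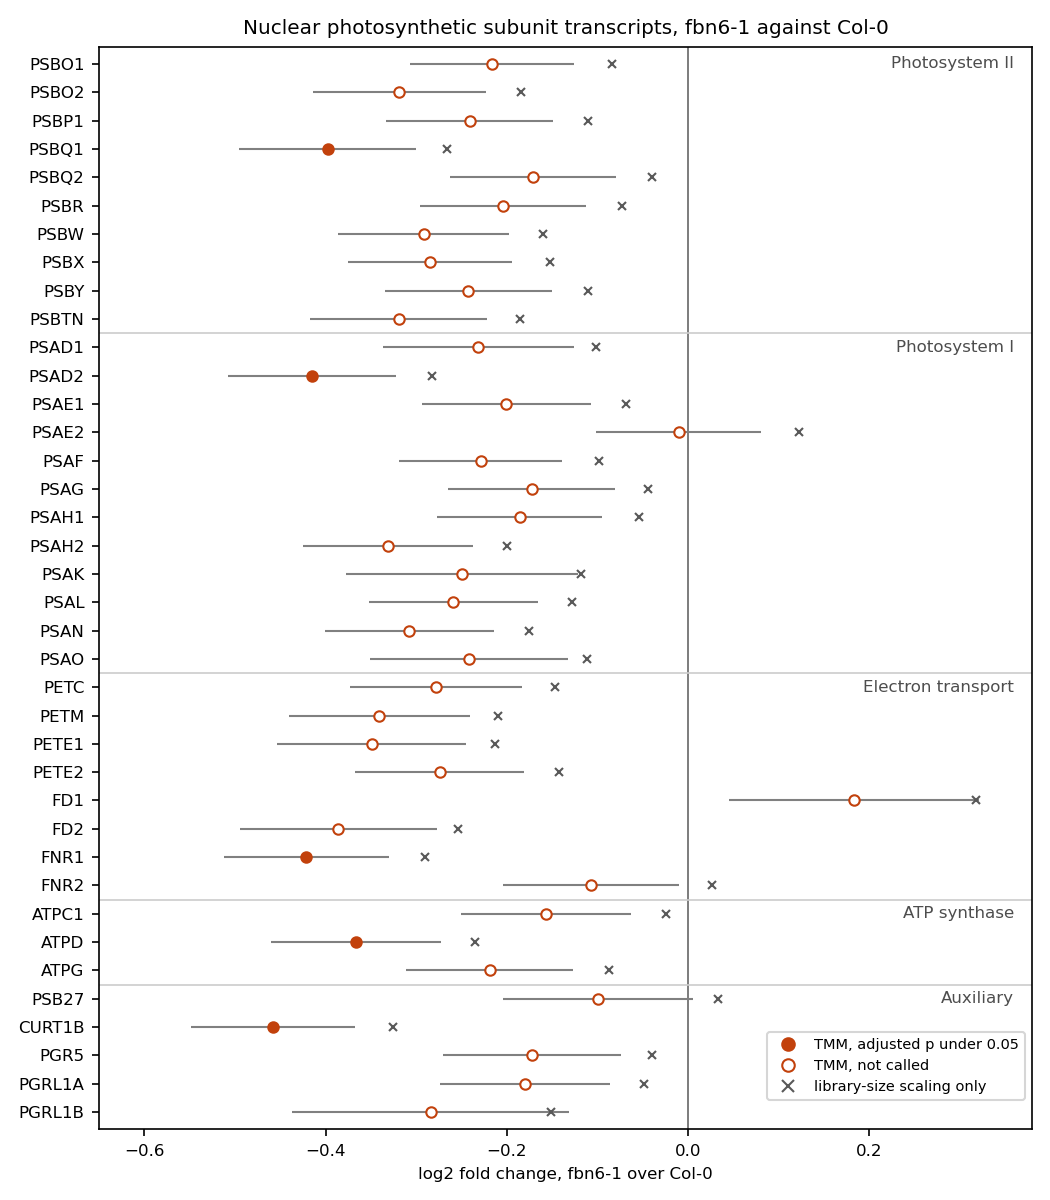
Log2 fold change of each of the 38 genes, fbn6-1 over Col-0, grouped by complex. Circles are the TMM-scaled values with bars of 1 standard error, filled where the adjusted p was under 0.05 (5 genes), and crosses are the values with library-size scaling only. All circles but that of FD1 lie below 0, and the crosses of FD1, PSAE2, FNR2 and PSB27 lie above it.

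The calls changed with the libraries and settings used. The same 5 genes were called with RLE factors, DESeq2 and a filter of 1 CPM, which called 2.3, 2.03 and 2.34% of all tested genes lower. They were among 8 genes called with limma-voom (2.38% of all tested genes), 7 without the low-count filter (2.52%) and 10 without plastid and mitochondrial genes (2.53%). With library-size scaling 0 of the 38 were called (1.18% of all tested genes), and at an adjusted p under 0.01 likewise 0 (0.911%). Leaving out fbn6-1 replicate 1, 2 or 3 left 0 called (1.17, 1.1 and 1% of all tested genes). Leaving out Col-0 replicate 2 left FNR1 and CURT1B (1.28%), and leaving out Col-0 replicate 4 left CURT1B (1.24%). Without Col-0 replicate 3, the library that stood apart, 7 genes were called, the 5 with PSBO2 and PSBTN, against 4.52% of all tested genes.

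**Figure D2:**
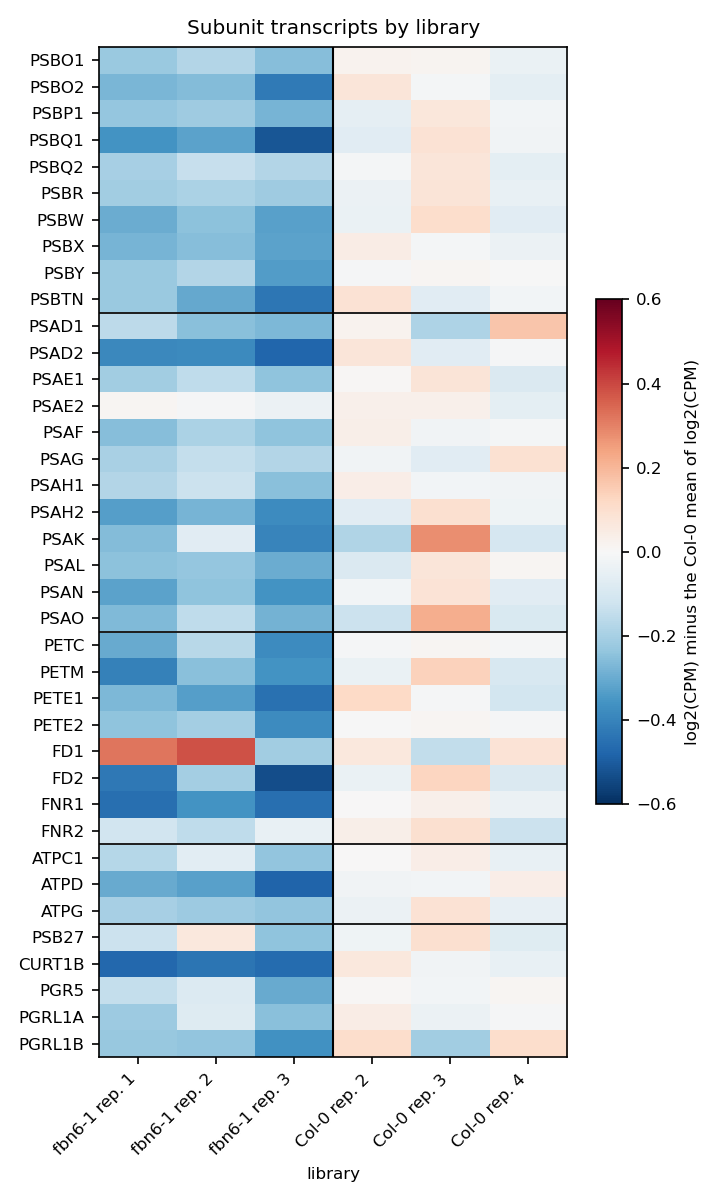
Log2 CPM of each gene in each of the 6 libraries, minus its mean log2 CPM over the 3 Col-0 libraries (blue lower, red higher). The fbn6-1 columns are blue for most genes, FD1 is red in fbn6-1 replicates 1 and 2 and blue in replicate 3, and Col-0 replicate 3 is the highest Col-0 library for 21 of the 38 genes and the lowest for 9.

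Each of the 5 groups held 1 gene that was called lower, and among the 10 photosystem II genes this was PSBQ1. The test called 2.34% of all tested genes lower, and 10.4% of the other nuclear genes averaging 100 CPM or more. For all 10 every fbn6-1 library lay below every Col-0 library. That held for 12.1% of all tested genes and 42.9% of the other nuclear genes averaging 100 CPM or more. The group had a median log2 fold change of -0.26, from -0.40 for PSBQ1 to -0.17 for its paralogue PSBQ2. Of the 10, 9 had an unadjusted p under 0.05, all of them lower, against 9.8% of all tested genes lower. In either direction 39.7% of the other nuclear genes averaging 100 CPM or more had such a p. PSBQ1 (AT4G21280, chromosome 4) encodes an extrinsic lumenal protein of the oxygen-evolving complex. It had 587, 601 and 527 CPM in the fbn6-1 libraries, against 718, 799 and 742 CPM in the Col-0 libraries. Every fbn6-1 library was below every Col-0 library, and the mean was 75.9% of wild type (log2 fold change -0.40, SE 0.10, adjusted p = 0.0370). PSBQ2 (AT4G05180, chromosome 4), which encodes the second copy of that protein, had 698, 730 and 712 CPM in fbn6-1 and 797, 844 and 770 CPM in Col-0, and was not called (adjusted p = 0.356).

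The manganese-stabilising protein of the oxygen-evolving complex is encoded by PSBO1 and PSBO2. PSBO1 had 1814, 1874 and 1772 CPM in fbn6-1 and 2148, 2137 and 2058 CPM in Col-0 (log2 fold change -0.22, SE 0.09, adjusted p = 0.227). PSBO2 had 582, 589 and 526 CPM in fbn6-1 and 741, 699 and 676 CPM in Col-0 (-0.32, SE 0.10, adjusted p = 0.0838). Neither was called, although neither pair of groups overlapped. PSBP1, the main gene for another extrinsic protein of that complex, averaged 1450 ± 34.9 CPM in fbn6-1 and 1713 ± 73.8 CPM in Col-0 (SD, n = 3 each), a log2 fold change of -0.24. The genes of the small subunits, PSBR, PSBW, PSBX, PSBY and PSBTN, had log2 fold changes between -0.20 and -0.32. The largest in size, that of PSBTN, came from means of 401 ± 29.2 CPM in fbn6-1 and 501 ± 27.9 CPM in Col-0 (SD, n = 3 each).

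The upstream sequences of PSBQ1, PSBQ2 and CURT1B are shown because PSBQ1 and CURT1B were the photosystem II and auxiliary genes that fell, and PSBQ2 is the paralogue of PSBQ1 that was not called. Each is the 150 bases before the annotated gene start in the RefSeq annotation of TAIR10.1, at chr4:11334202-11334351 on the plus strand, chr4:2673244-2673393 on the minus strand and chr2:19243198-19243347 on the plus strand, in windows that overlap no other annotated gene. Each is written 5′ to 3′ in the direction of transcription, with matches to any of 7 motifs, on either strand, in capitals.
PSBQ1: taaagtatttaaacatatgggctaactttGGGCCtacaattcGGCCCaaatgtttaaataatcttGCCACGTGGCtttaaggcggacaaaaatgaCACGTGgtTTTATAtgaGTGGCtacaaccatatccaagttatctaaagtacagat
PSBQ2: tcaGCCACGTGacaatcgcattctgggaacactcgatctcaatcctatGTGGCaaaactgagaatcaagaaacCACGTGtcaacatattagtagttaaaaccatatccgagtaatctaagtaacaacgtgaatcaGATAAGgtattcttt
CURT1B: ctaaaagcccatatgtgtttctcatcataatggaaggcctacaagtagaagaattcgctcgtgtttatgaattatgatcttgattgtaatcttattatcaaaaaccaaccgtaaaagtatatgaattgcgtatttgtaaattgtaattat
The motifs were the G-box CACGTG, the I-box GATAAG, the GLK-type motif CCAATC, the TATA box TATAAA, the evening element AAAATATCT, and the light-regulation motifs GCCAC (SORLIP1) and GGGCC (SORLIP2). SORLIP1 can overlap a G-box, as in the first match of PSBQ2, and SORLIP2 can overlap CCAATC. Both PSBQ genes held the G-box, and the 150 bases printed for CURT1B held no match to any of the 7, while the 100 bases before them held 1 match each to the TATA box, SORLIP1 and SORLIP2.

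Over the 250 bases before the start, a G-box was present in 6 of the 38 genes (15.8%), against 6.49% of all 27443 nuclear protein-coding genes. SORLIP1 was present in 14 (36.8%, against 15.4%), SORLIP2 in 12 (31.6%, against 16.2%), and the I-box in 10 (26.3%, against 12.3%). CCAATC was present in 5 (13.2%, against 10.2%), the TATA box in 19 of the 38 (against 47.3%), and the evening element in 1 (2.63%, against 2.36%). Of the 5 genes that fell, PSBQ1 and ATPD held a G-box, and of the other 33 genes 4 did. SORLIP1 was present in 3 of the 5 and 11 of the 33, and SORLIP2 in 3 and 9. The TATA box was present in 3 and 16, the I-box in 1 and 9, CCAATC in 1 and 4, and the evening element in 0 and 1. These splits were not tested. Unlike the 3 printed windows, the 250-base windows were not screened for other annotated genes, among the 38 or among all 27443. Those of PSBQ1, PSAD2, ATPD and FNR1, among others, overlap a neighbouring gene, so some matches may lie in neighbours. These are matches of letters in a window and no measure of factor binding.

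Among the 12 photosystem I genes only PSAD2 fell by the test, against 10.4% of the other nuclear genes averaging 100 CPM or more. The group's median log2 fold change was -0.24, from -0.42 for PSAD2 to -0.01 for PSAE2. For 9 of the 12 every fbn6-1 library lay below every Col-0 library. That held for 12.1% of all tested genes and 42.9% of the other nuclear genes averaging 100 CPM or more. PSAD2 (AT1G03130, chromosome 1) encodes a copy of the stromal subunit that docks ferredoxin. It had 288, 290 and 272 CPM in fbn6-1, against 397, 360 and 376 CPM in Col-0. The groups did not overlap, and the fbn6-1 mean was 75.0% of wild type (log2 fold change -0.42, SE 0.09, adjusted p = 0.0222). Its paralogue PSAD1 had 508, 477 and 471 CPM in fbn6-1 and 574, 498 and 636 CPM in Col-0, and its groups overlapped through Col-0 replicate 3 (-0.23, SE 0.11, adjusted p = 0.270).

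The other stromal subunit, PSAE, is likewise encoded by a pair. PSAE1 had 766, 797 and 750 CPM in fbn6-1 and 889, 935 and 834 CPM in Col-0 (log2 fold change -0.20, SE 0.09, adjusted p = 0.279). PSAE2 had 159, 157 and 154 CPM in fbn6-1 and 161, 161 and 151 CPM in Col-0, a log2 fold change of -0.01 (SE 0.09) that lay at 0.12 with library-size scaling. On the lumenal side, where plastocyanin binds, PSAF averaged 844 ± 19.8 CPM in fbn6-1 and 989 ± 21.6 CPM in Col-0, and PSAN averaged 810 ± 32.7 CPM in fbn6-1 and 1002 ± 53.9 CPM in Col-0 (SD, n = 3 each). Neither was called (log2 fold changes -0.23 and -0.31, adjusted p = 0.193 and 0.0894).

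PSAH, PSAL and PSAO form the side of photosystem I where light-harvesting complex II binds in state transitions. PSAH1 had 305, 315 and 290 CPM in fbn6-1 and 354, 341 and 339.5 CPM in Col-0 (log2 fold change -0.19, adjusted p = 0.313). PSAH2 had 469, 485 and 453 CPM in fbn6-1 and 562, 630 and 578 CPM in Col-0 (-0.33, SE 0.09, adjusted p = 0.0682). PSAL, the photosystem I gene with the highest mean CPM, averaged 916 ± 22.0 CPM in fbn6-1 and 1096 ± 59.8 CPM in Col-0 (SD, n = 3 each, -0.26). PSAK and PSAO varied most among the Col-0 libraries: in Col-0 replicate 3 they were 0.28 and 0.22 above their Col-0 mean of log2 CPM, and PSAK had 882, 1009 and 803 CPM in fbn6-1 and 934, 1284 and 985 CPM in Col-0, so that its groups overlapped.

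Of the 8 electron transport genes, FNR1 fell and FD1 was the only one of the 38 genes with a TMM-scaled fold change above 0. The group had the lowest median log2 fold change of the 5, -0.31. For 6 of the 8 every fbn6-1 library lay below every Col-0 library. That held for 12.1% of all tested genes and 42.9% of the other nuclear genes averaging 100 CPM or more. FNR1 (AT5G66190, chromosome 5) encodes a leaf ferredoxin-NADP reductase. It had 406, 434 and 406 CPM in fbn6-1, against 557, 568 and 543 CPM in Col-0, with no overlap and a mean at 74.7% of wild type (log2 fold change -0.42, SE 0.09, adjusted p = 0.0194). FNR2, which encodes the other leaf isoform, had 207, 201 and 217 CPM in fbn6-1 and 229, 239 and 205 CPM in Col-0, and the groups overlapped (-0.11, SE 0.10, adjusted p = 0.635).

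Ferredoxin, the soluble electron acceptor of photosystem I, is encoded for leaves by FD1 and FD2. FD1 had 225, 235 and 156 CPM in fbn6-1 and 189, 163 and 191 CPM in Col-0 (log2 fold change 0.18, SE 0.14, adjusted p = 0.543). Its fbn6-1 replicate 3 lay below every Col-0 library while the other fbn6-1 libraries lay above all of them, so no difference could be shown beyond the spread between replicates. FD2, the more abundant of the pair, had 835, 976 and 778 CPM in fbn6-1 and 1094, 1230 and 1059 CPM in Col-0 (-0.39, SE 0.11, adjusted p = 0.0660). The FD2 groups did not overlap, and the gene was called with limma-voom, without the low-count filter and without organellar genes.

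Plastocyanin, the copper protein that reduces photosystem I, is encoded by PETE1 and PETE2. PETE2 averaged 1315 ± 81.7 CPM in fbn6-1 and 1590 ± 10.97 CPM in Col-0 (SD, n = 3 each, log2 fold change -0.27, adjusted p = 0.128). PETE1, the electron transport gene with the lowest level, had 54.95, 52.6 and 48.5 CPM in fbn6-1 and 71.9, 65.9 and 61.3 CPM in Col-0 (-0.35, SE 0.10, adjusted p = 0.0837). Of the cytochrome b6f complex, the Rieske protein gene PETC averaged 484 ± 36.3 CPM in fbn6-1 and 587 ± 4.75 CPM in Col-0, and the small subunit gene PETM averaged 281 ± 16.0 CPM in fbn6-1 and 356 ± 30.7 CPM in Col-0 (SD, n = 3 each). None of these 4 genes was called. For each of them every fbn6-1 library lay below every Col-0 library, against 12.1% of all tested genes.

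The 3 nuclear ATP synthase genes had a median log2 fold change of -0.22, and ATPD fell. ATPD (AT4G09650, chromosome 4), the gene of the delta subunit that joins the catalytic head to the stalk, had 358, 352 and 317 CPM in fbn6-1, against 435, 436 and 453 CPM in Col-0. All fbn6-1 libraries were below all Col-0 libraries, at 77.6% of wild type on average (-0.37, SE 0.09, adjusted p = 0.0453). ATPC1, the gene of the gamma subunit that carries redox regulation, averaged 606 ± 37.3 CPM in fbn6-1 and 676 ± 20.1 CPM in Col-0 (SD, n = 3 each, -0.16, adjusted p = 0.424). ATPG, which encodes a subunit of the membrane-embedded peripheral stalk, averaged 293 ± 3.59 CPM in fbn6-1 and 341 ± 18.2 CPM in Col-0 (SD, n = 3 each, -0.22, adjusted p = 0.227).

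Of the 5 auxiliary genes CURT1B fell, with the lowest fold change of all 38 genes. CURT1B (AT2G46820, chromosome 2) encodes a protein that bends thylakoid membranes at the margins of the grana. It had 554, 565 and 556 CPM in fbn6-1, against 801, 756 and 743 CPM in Col-0. The fbn6-1 libraries lay within a narrow range well below Col-0, at 72.8% of wild type on average (log2 fold change -0.46, SE 0.09, adjusted p = 0.0118).

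The remaining auxiliary genes serve cyclic electron flow and photosystem II assembly, and none was called. PGR5, a factor of cyclic electron flow around photosystem I, averaged 75.6 ± 5.88 CPM in fbn6-1 and 85.2 ± 0.977 CPM in Col-0 (SD, n = 3 each). Its partner gene PGRL1A averaged 260 ± 16.7 CPM in fbn6-1 and 295 ± 8.42 CPM in Col-0, and the second copy PGRL1B, the gene with the fewest counts of the 38, averaged 8.71 ± 0.461 CPM in fbn6-1 and 10.6 ± 1.28 CPM in Col-0 (SD, n = 3 each). PSB27, an assembly factor of photosystem II, had 149, 170 and 137 CPM in fbn6-1 and 160, 174 and 155 CPM in Col-0, with groups that overlapped (-0.10, SE 0.10, adjusted p = 0.693).

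Compared with each other, the complexes kept nearly the same proportions in both genotypes. Together the 38 genes took 6.17, 6.21 and 5.95% of nuclear counts in the fbn6-1 libraries, against 6.66, 6.84 and 6.65% in the Col-0 libraries. The photosystem II genes held 2.50 ± 0.0386% in fbn6-1 and 2.74 ± 0.0377% in Col-0, and the photosystem I genes 1.98 ± 0.0389% in fbn6-1 and 2.15 ± 0.0659% in Col-0 (SD, n = 3 each). The electron transport genes held 1.02 ± 0.0532% in fbn6-1 and 1.15 ± 0.0189% in Col-0, the ATP synthase genes 0.331 ± 0.0104% in fbn6-1 and 0.357 ± 0.00240% in Col-0, and the auxiliary genes 0.281 ± 0.00598% in fbn6-1 and 0.323 ± 0.010% in Col-0 (SD, n = 3 each). In each of the 5 groups every fbn6-1 library was below every Col-0 library. For the auxiliary genes this rests largely on CURT1B. It averaged 558 CPM of a summed 1055 CPM in fbn6-1, and 767 CPM of a summed 1320 CPM in Col-0. Of the other auxiliary genes none was called, and the groups of PSB27 overlapped. The summed CPM in fbn6-1 was 84.0% of that in Col-0 for photosystem II, 84.3% for photosystem I, 81.6% for electron transport, 85.2% for ATP synthase and 79.9% for the auxiliary genes.

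**Figure D3:**
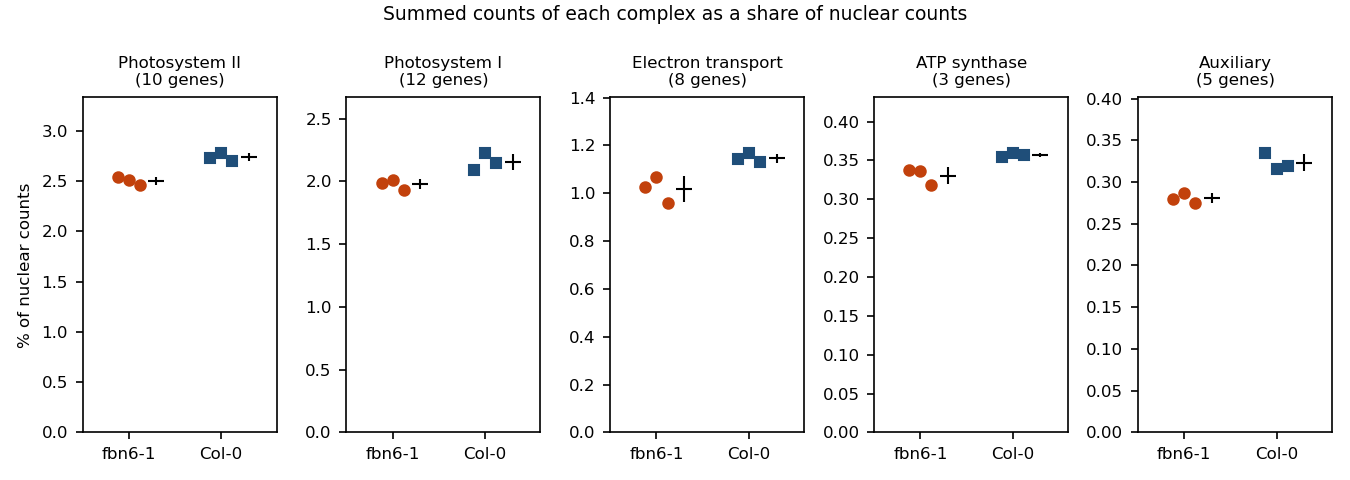
Summed counts of each group of genes as a percentage of all nuclear counts of a library, with axes that start at 0. Points are libraries, and the crosses beside them give the mean and 1 SD of 3 libraries. In all 5 panels the fbn6-1 points lie below the Col-0 points.

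Within a library, the ratio between complexes does not depend on scaling between libraries. The summed level of photosystem I over photosystem II was 0.790 in fbn6-1 and 0.787 in Col-0, a difference of 0.01 on the log2 scale. Electron transport over photosystem II was 0.407 in fbn6-1 and 0.419 in Col-0 (-0.04), and electron transport over photosystem I was 0.515 in fbn6-1 and 0.533 in Col-0 (-0.05). The ATP synthase sum was 0.132 of the photosystem II sum in fbn6-1 and 0.130 in Col-0 (0.02), 0.167 of the photosystem I sum in fbn6-1 and 0.166 in Col-0 (0.01), and 0.325 of the electron transport sum in fbn6-1 and 0.311 in Col-0 (0.06). For all 6 ratios among these 4 complexes the libraries of the genotypes overlapped. The largest difference was that of ATP synthase over electron transport, 0.06, with SDs of 0.040 in fbn6-1 and 0.018 in Col-0 (log2 scale, n = 3 each). Its groups overlapped only through fbn6-1 replicate 2 (-1.667) and Col-0 replicate 4 (-1.665). Of the 6 differences, 4 turned sign under an alternative, so no direction is read from them. Electron transport over photosystem II lay at 0.019 with the mean of log2 CPM. ATP synthase over photosystem II and over photosystem I lay at -0.042 and -0.057 without the most abundant gene of each complex, and the second also turned with the mean of log2 CPM (-0.014) and without Col-0 replicate 3 (-0.0050). Photosystem I over photosystem II lay at -0.0052 without fbn6-1 replicate 2 and at -0.014 without Col-0 replicate 2. No test was run on these sums.

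Levels of different genes were compared per kilobase of exon, since longer transcripts give more counts. The median level was 771 CPM per kilobase in fbn6-1 and 971 in Col-0 for photosystem II, and 748 in fbn6-1 and 870 in Col-0 for photosystem I. It was 294 in fbn6-1 and 383 in Col-0 for electron transport, 297 in fbn6-1 and 384 in Col-0 for ATP synthase, and 116 in fbn6-1 and 124 in Col-0 for the auxiliary genes. The highest level of the 38 was that of PSBR, a small photosystem II protein, at 2190 ± 20.1 CPM per kilobase in fbn6-1 and 2523 ± 121 in Col-0, and the lowest was that of PGRL1B, at 5.68 ± 0.301 in fbn6-1 and 6.91 ± 0.838 in Col-0 (SD, n = 3 each).

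Within a complex the levels per kilobase were far from equal. The highest over the lowest was 5.45 in fbn6-1 and 5.31 in Col-0 for photosystem II, and 5.01 in fbn6-1 and 5.35 in Col-0 for photosystem I. For electron transport, whose extremes were PETE2 and PETE1, it was 19.7 in fbn6-1 and 18.6 in Col-0. The 3 ATP synthase genes lay within 1.52 times of each other in fbn6-1 and 1.46 times in Col-0.

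**Figure D4:**
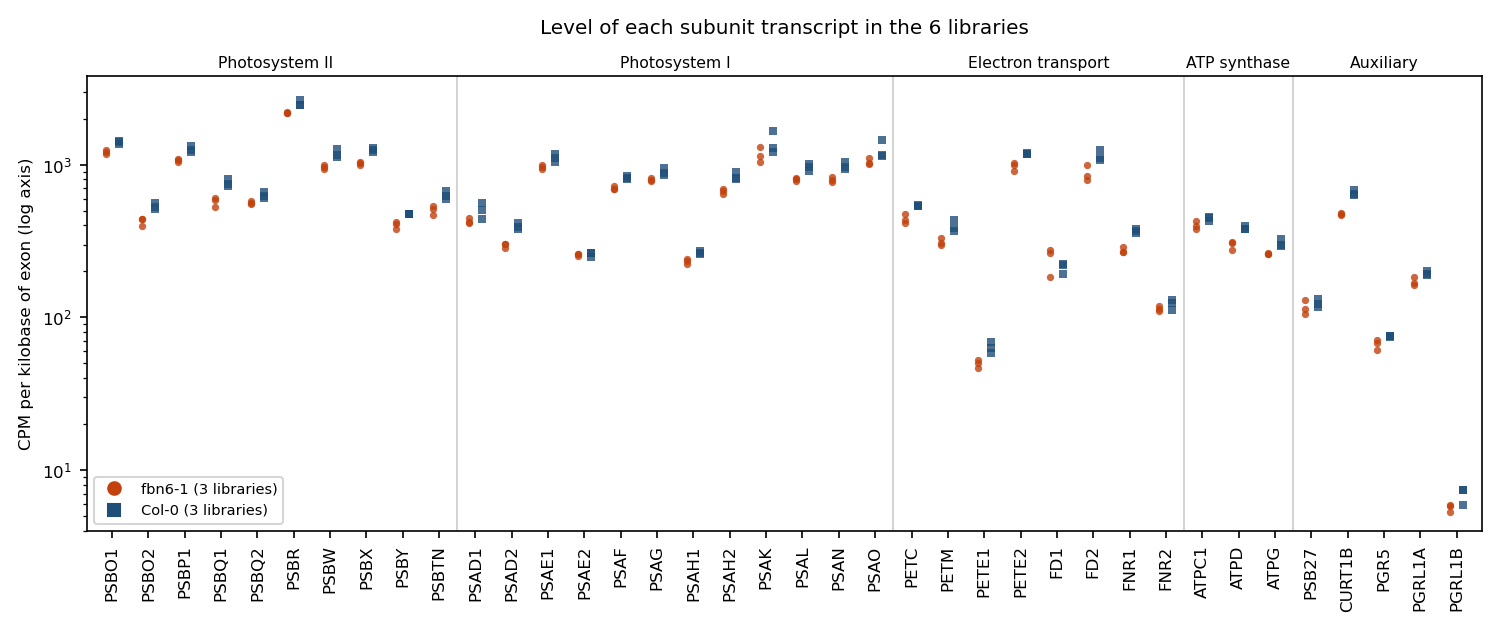
Level of each gene in CPM per kilobase of exon, on a log axis, with 1 point per library and fbn6-1 left of Col-0. Levels run from PGRL1B at the bottom to PSBR at the top, and in every group but ATP synthase the genes differ by 5 times or more between highest and lowest.

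For 9 subunits encoded by a pair of paralogues, the share of each copy within the pair was compared, which is free of scaling. The FD1 share of ferredoxin counts was 21.3, 19.4 and 16.7% in the fbn6-1 libraries, against 14.7, 11.7 and 15.3% in the Col-0 libraries. The FNR1 share of ferredoxin-NADP reductase counts was 66.3, 68.3 and 65.2% in fbn6-1, against 70.8, 70.4 and 72.6% in Col-0. The PSBQ1 share of PSBQ counts was 45.7, 45.2 and 42.5% in fbn6-1, against 47.4, 48.6 and 49.1% in Col-0. In each of these pairs the groups did not overlap, with mean differences of 5.23, -4.70 and -3.93 percentage points.

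Smaller differences without overlap were seen for PSAH1 (39.3% in fbn6-1, 36.9% in Col-0), PSAE1 (83.1% in fbn6-1, 84.9% in Col-0) and PSBO1 (76.3% in fbn6-1, 75.0% in Col-0). Each of these 6 pairs reached p = 0.1 in the two-sided exact permutation test, the smallest value that 3 against 3 libraries allow, or 0.15 after Benjamini-Hochberg adjustment over the 9 pairs, so none could pass 0.05. The groups overlapped for PSAD1 (63.1% in fbn6-1, 60.0% in Col-0, exact p = 0.2), for PETE1 (3.81% in fbn6-1, 4.01% in Col-0, exact p = 0.4) and for PGRL1A (96.8% in fbn6-1, 96.5% in Col-0, exact p = 0.4). No pair shared a 50-base stretch between its RefSeq transcripts, and the longest shared run in a pair was 17 to 38 bases.

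**Figure D5:**
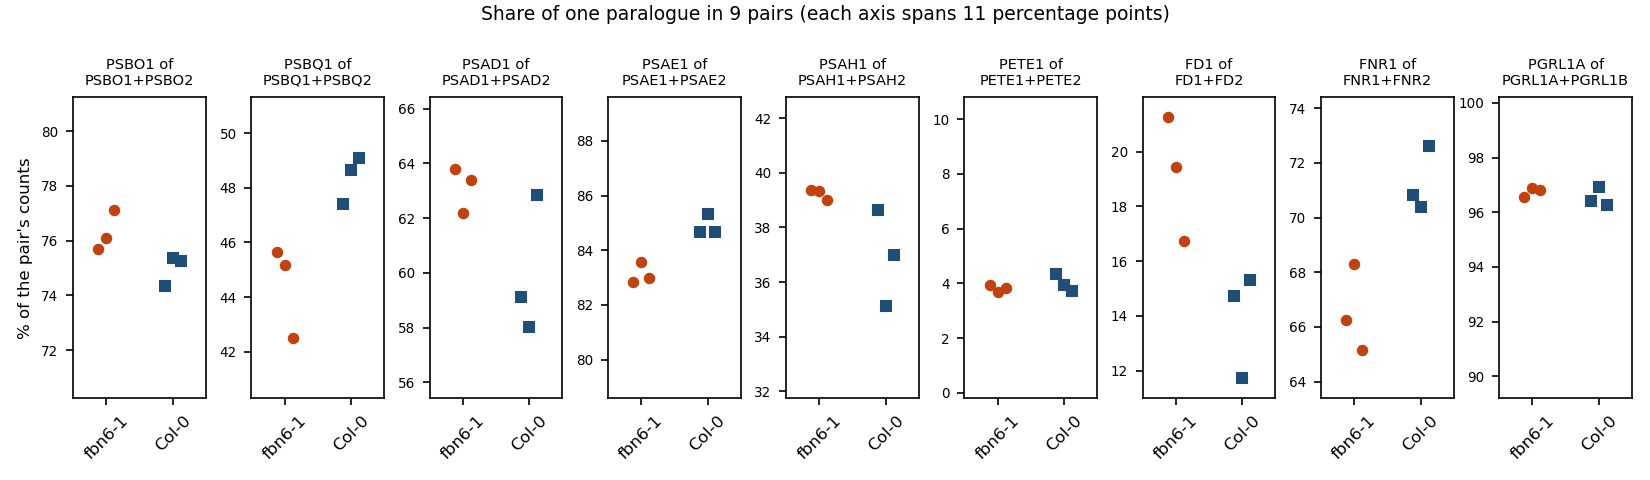
Share of the first-named paralogue in the summed counts of each of 9 pairs, by library. Each axis spans 11 percentage points and does not start at 0. The fbn6-1 and Col-0 points are separate for PSBO1, PSBQ1, PSAE1, PSAH1, FD1 and FNR1 and overlap for PSAD1, PETE1 and PGRL1A.

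Annotated neighbours overlap 11 of the 38 genes in RefSeq TAIR10.1. Overlaps were measured between whole gene spans, introns included, so the exon bases shared may be fewer. Whether counting used strand is not given in the sources used here, so reads of such neighbours cannot be told apart. FNR1 shares 191 bases with AT5G66180 on the opposite strand, which averaged 23.0 CPM in fbn6-1 and 26.0 CPM in Col-0. PSAD2 shares 2 bases with a neighbour on the same strand, and PSBQ1, ATPD and CURT1B overlap none. The longest overlaps were those of PSAH1 with ROPGEF13 (788 bases), PSAG with AT1G55673 (479 bases) and PSAE1 with AT4G28755 (436 bases), all on the opposite strand. AT4G28755 averaged 569 CPM in fbn6-1 and 659 CPM in Col-0, where PSAE1 had 771 and 886 CPM. AT1G55673 averaged 559 CPM in fbn6-1 and 640 CPM in Col-0, where PSAG had 623 and 702 CPM. ROPGEF13 averaged 107 CPM in fbn6-1 and 121 CPM in Col-0, where PSAH1 had 303 and 345 CPM. The part of shared reads in the levels and paralogue shares of these subunit genes was not tested.

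Other genes of the same pathways were compared from lists of assembly and regulatory factors, further subunits and isoforms, and plastid-encoded subunits. Of 34 assembly and regulatory factors, among them the photosystem II factors HCF136 and HCF173 and the state transition kinase STN7, edgeR called 0, and their median log2 fold change was -0.06. At an unadjusted p under 0.05 stood 9 of the 34, against 17.8% of all tested genes. Of 31 plastid-encoded subunits edgeR likewise called 0 (1 at an unadjusted p under 0.05), with a median of -0.07. DESeq2 and limma-voom also called 0 genes of both lists.

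Of 14 tested further subunits and isoforms, PSBP2 and CURT1A fell and CYTC6A rose, against 2.34% of all tested genes lower and 1.48% higher. PSBP2 (AT2G30790), a little-expressed homologue of PSBP1, had 21, 13 and 9 counts in fbn6-1 and 45, 35 and 60 counts in Col-0, and its log2 fold change was -1.80 (SE 0.26), with an adjusted p of 0.00149. It was called under every alternative run, on means of 1.33 ± 0.281 CPM in fbn6-1 and 4.73 ± 0.541 CPM in Col-0 (SD, n = 3 each). CURT1A, the homologue of CURT1B with the same role in thylakoid curvature, had 386, 413 and 370 CPM in fbn6-1 and 490, 502 and 507 CPM in Col-0 (-0.36, SE 0.09, adjusted p = 0.0461). CYTC6A, the gene of a plastid cytochrome c6-like protein, had 9.53, 7.24 and 7.84 CPM in fbn6-1 and 3.67, 5.27 and 4.57 CPM in Col-0 (0.88, SE 0.19, adjusted p = 0.0217). CURT1A was not called with RLE factors (adjusted p = 0.0509), with library-size scaling (0.232) or without any one library other than Col-0 replicate 3 (up to 0.202). CYTC6A was not called without fbn6-1 replicate 1 or 3 or Col-0 replicate 2 or 4 (adjusted p up to 0.138).

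The other CURT1 genes were not called. CURT1C averaged 103 ± 8.95 CPM in fbn6-1 and 126 ± 7.96 CPM in Col-0 (log2 fold change -0.28, adjusted p = 0.158). CURT1D averaged 9.92 ± 1.99 CPM in fbn6-1 and 7.06 ± 0.551 CPM in Col-0 (SD, n = 3 each, 0.50, adjusted p = 0.146). The ferredoxin gene FD4 had 0 counts in all 6 libraries.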

How the data were processed

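RNA was measured in 6 libraries of 3-week-old plants (no organ is named), 3 of fbn6-1 and 3 of Col-0, grouped by their labels. Each library has 1 deposited table of raw counts per gene. The submitters' processing notes name TAIR10 as the build and list featureCounts, TopHat2 2.1.1, Trimmomatic and FastQC. Not given in the sources used here are strand use, annotation release and treatment of reads with several matches, so reads of similar or overlapping genes may be lost or misassigned.

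The 38 genes and all lists were chosen with earlier results of these data known. The test was run in edgeR 4.0.16 under R 4.3.3 (quasi-likelihood test, two-sided, TMM factors, filterByExpr with a minimum count of 10 and a minimum total of 15), which left 16584 of 36917 genes. P-values were adjusted by Benjamini-Hochberg over all of these. CPM are counts per 1000000 of the TMM-scaled library size. The SE of a log2 fold change is its size divided by the square root of the F statistic. The common biological coefficient of variation was 0.124. Counts of the 38 genes ranged from 72 to 24168 per library.

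For paralogue shares the test was an exact permutation test (two-sided). Sums and ratios of complexes were described without a test. Exon lengths, overlaps and upstream sequences came from RefSeq TAIR10.1, in which 36632 of the identifiers and all 38 genes were found. The deposited tables hold no coordinates. The genes named are FBN6, every called member, the extremes of level and fold change in each complex, both copies of each of the 9 pairs, and up to 5 called genes per further list and direction; others were named after their values were seen. Alternatives tried were DESeq2 1.42.0, RLE factors, scaling by library size, limma-voom (limma 3.58.1), no low-count filter, a filter of 1 CPM in 3 libraries, removal of organellar genes, a threshold of 0.01, a replicate block and leaving out each library; for complex ratios, the mean of log2 CPM, lengths, and removal of the most abundant gene; for paralogue shares, lengths.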

Additional observations from a re-analysis of the deposited data

How the results depend on the processing

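Calls depended on the settings more than directions did. Against 388 lower and 245 higher genes, library-size scaling called 195 lower and 508 higher, no low-count filter 727 and 505, the replicate block 118 and 73, and a threshold of 0.01 151 and 69; leaving out single libraries gave 171 to 775 lower and 84 to 463 higher, with the highest counts without Col-0 replicate 3. Of the 38 subunit genes, 5 were lower with TMM; 0 were with library-size scaling, with the replicate block (0.712% of all tested genes lower) or at 0.01, 8 with limma-voom, 10 without plastid and mitochondrial genes, and 0 to 7 when single libraries were left out. Their median log2 fold change was -0.25 with TMM, -0.11 with library-size scaling and -0.28 to -0.22 when single libraries were left out. For named genes, 511 values under alternatives kept their direction and side of the threshold, 45 lost the call, 12 gained one and 6 turned direction. These 6 were PSAE2 at 0.12 with library-size scaling and at 0.0066, 0.0038 and 0.0030 without fbn6-1 replicate 3, Col-0 replicate 2 and Col-0 replicate 3 (range when single libraries were left out -0.040 to 0.0066), and FNR2 at 0.026 and PSB27 at 0.033 with library-size scaling. Assembly factors numbered 1 higher with library-size scaling and 0 to 2 lower when single libraries were left out. Further subunits numbered 1 lower with RLE factors, library-size scaling or the block, 1 to 2 lower and 0 to 1 higher when single libraries were left out, and 0 higher with the block, where CURT1A and CYTC6A had an adjusted p of 0.494 and 0.255. Plastid-encoded subunits numbered 1 lower with no low-count filter and 0 to 2 lower when single libraries were left out. Differences of complex ratios moved with the mean of log2 CPM to 0.035 for photosystem I over photosystem II, 0.019 for electron transport over photosystem II and 0.0017 for ATP synthase over electron transport, and without the most abundant gene of each complex to -0.042 for ATP synthase over photosystem II, -0.057 over photosystem I and 0.0051 over electron transport. The cause of these changes was not tested. The genotypes share only replicate numbers 2 and 3, and the deviations of same-numbered libraries correlated at -0.03 and 0.10, so the numbers were not taken as pairs. With 3 libraries per genotype and standard errors of 0.09 to 0.15, single log2 differences of the size seen here lie near the limit of what the test can call.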
